A study of Homo sapiens with 4 samples.

Results

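The enzymes described here build purine nucleotides from small precursors in FaDu cells, an established human epithelial line derived from a hypopharyngeal squamous cell carcinoma. They are 10 genes of 62077 rows in the expression table: PRPS1, PPAT, GART, PFAS, PAICS, ADSL, ATIC, IMPDH1, IMPDH2 and GMPS, taken by symbol from rows on a numbered or sex chromosome. The set was chosen by measured values, because PAICS was listed at 0 in 1 library only, so the levels of these genes are given as a description with no test. All 10 had a mean of at least 1 FPKM (a read abundance scaled to exon length and to the depth of the library), as did 15057 genes in all, which serve as the background.

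De novo purine synthesis starts from phosphoribosyl pyrophosphate (PRPP), a phosphorylated sugar made by PRPS1 and its relatives. PPAT, GART, PFAS, PAICS, ADSL and ATIC then assemble the purine ring on it and end at inosine monophosphate (IMP), which IMPDH1, IMPDH2 and GMPS carry on to GMP, while adenylosuccinate synthetase and ADSL carry it on to AMP. The route takes glycine, glutamine, aspartate and folate-bound one-carbon units, and dividing cells draw on it for DNA and RNA.

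RNA-Seq was performed on 4 libraries, 1 in each of 4 groups: normoxia with scrambled control (N-scr), hypoxia with scrambled control (H-scr), normoxia with TET1 knockdown (N-si) and hypoxia with TET1 knockdown (H-si). Hypoxia was 1% oxygen for 19 h. All cells had been infected with a lentivirus that carried a short hairpin RNA in the pLKO.1-puro vector, scrambled or against TET1, a dioxygenase that oxidises 5-methylcytosine. No group has a replicate, so no difference below has a replicate check, and the intervals given cover counting error only.

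TET1 itself was listed at 0.129 FPKM (N-scr) and 0.0493 (N-si) under normoxia and 0.331 (H-scr) and 0.122 (H-si) under hypoxia, so it was 2.71-fold lower with TET1-si under hypoxia, at very low levels. Recovered depth lay between 22450000 and 24500000 reads per library. The epithelial markers KRT5, KRT8, KRT18, EPCAM, CDH1 and TP63 were present in each library, between 42.1 FPKM (TP63 in N-si) and 3992 (KRT5 in H-scr). The keratins were lower with TET1-si at both oxygen levels, with log2 changes under normoxia of -2.35 for KRT5, -1.85 for KRT8 and -1.87 for KRT18 and under hypoxia of -1.48, -2.07 and -2.09, while EPCAM and CDH1 were higher by 0.41 to 0.68. KRT14 was at 42.1 (N-scr) and 0.487 (N-si) under normoxia and 99.9 (H-scr) and 1.41 (H-si) under hypoxia. The leukocyte marker PTPRC did not exceed 0.0101 FPKM, and the fibroblast collagen COL1A1 was at 5.29 FPKM (N-scr) and 14.0 (N-si) under normoxia and 28.6 (H-scr) and 37.0 (H-si) under hypoxia, which was not tested for a part in the results.

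The 9 enzymes other than PAICS were lower in hypoxia than in normoxia in both knockdown states, as were 35.8% of all genes. PAICS was listed lower as well, but in scrambled cells this rests on its 0 in H-scr. In 9 of the 10, PAICS with its 0 included, both normoxia libraries lay above both hypoxia libraries. This order was that of 23.1% of all genes, and ADSL was the exception. Summed over the 9 enzymes other than PAICS, the level was 935.8 FPKM (N-scr) and 947.3 (N-si) under normoxia and 550.2 (H-scr) and 457.5 (H-si) under hypoxia. Hypoxia thus went with a 1.70-fold lower sum in scrambled cells and a 2.07-fold lower one with TET1-si. The sums of the normoxia libraries were nearly alike, but the single enzymes were not. With TET1-si under normoxia their log2 changes ran from -1.05 (ADSL) to 0.54 (PRPS1), with 4 of the 9 lower and 5 higher. In bulk RNA, fewer cells of a kind and less RNA per cell cannot be told apart.

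**Figure D1:**
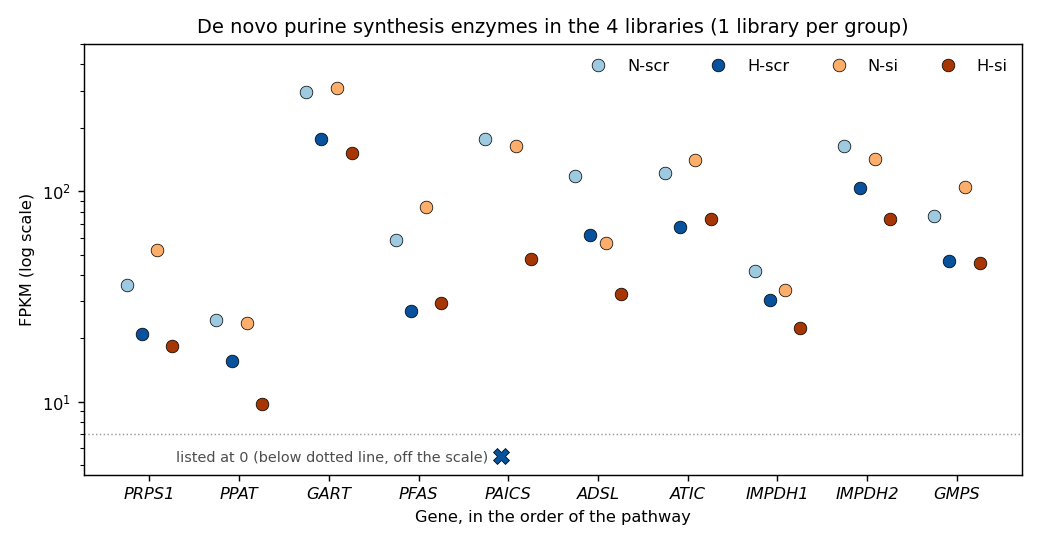
FPKM (log axis) of the 10 enzymes in the 4 libraries, 1 point per library, with genes in the order of the pathway. The hypoxia points lie below the normoxia points of the same knockdown state for every gene, GART is highest and PPAT lowest of the values above 0 in each library, and the cross marks PAICS, listed at 0 in H-scr.

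PRPS1 (ENSG00000147224, chromosome X, 106871737 to 106894256, plus strand; hg19 here and for the other loci) makes PRPP. It was listed at 35.9 FPKM (N-scr) and 52.4 (N-si) under normoxia and 20.9 (H-scr) and 18.4 (H-si) under hypoxia. N-si was the highest library and H-si the lowest, so scrambled cells had a hypoxia response of -0.78 on the log2(FPKM + 0.1) scale (95% counting interval -0.90 to -0.66) and TET1-si cells one of -1.50 (-1.63 to -1.39). The TET1-si response to hypoxia minus the scrambled one was -0.72, the lowest among the enzymes. PRPS2, the second PRPP synthetase of these cells, stood at 60.1 FPKM (N-scr) and 115 (N-si) under normoxia and 45.6 (H-scr) and 58.6 (H-si) under hypoxia. It exceeded PRPS1 in each library, by 1.67-fold (N-scr) and 2.19-fold (N-si) under normoxia and 2.18-fold (H-scr) and 3.18-fold (H-si) under hypoxia. The testis form PRPS1L1 was listed at 0 in each library.

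PPAT (ENSG00000128059, chromosome 4, 57259528 to 57301781, minus strand) transfers the amide of glutamine to PRPP, the committed step of the route and a point of feedback control by purine nucleotides. It was the lowest enzyme above 0 in each library, with 24.6 FPKM (N-scr) and 23.7 (N-si) under normoxia and 15.7 (H-scr) and 9.80 (H-si) under hypoxia. Its level was nearly alike in the normoxia libraries, where the TET1-si response was -0.05 (counting interval -0.14 to 0.04), and it differed under hypoxia, where the response was -0.67 (-0.81 to -0.55). Scrambled cells had a hypoxia response of -0.65 and TET1-si cells one of -1.27.

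PAICS (ENSG00000128050, chromosome 4, 57301907 to 57327534, plus strand) encodes an enzyme with carboxylase and ligase activities midway along the ring assembly. It lies head to head with PPAT on the other strand, and the loci are 125 bases apart. It was listed at 176.0 FPKM (N-scr) and 164 (N-si) under normoxia and 0 (H-scr) and 47.6 (H-si) under hypoxia, second only to GART in both normoxia libraries. In TET1-si cells it was 3.44-fold lower in hypoxia (log2 change -1.78, counting interval -1.84 to -1.73), the largest decrease of the 10 enzymes in that comparison. Against the 0 in H-scr no fold is given.

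The stretch between the PPAT and PAICS loci is printed because it faces the starts of both genes, and in H-scr PPAT had a value while PAICS was at 0. It is 76.0% G or C and holds 3 copies of GGGCGG, the GC box bound by Sp factors, shown in capitals, and no CACGTG or CCAAT. It comes from GRCh37, plus strand, chr4:57301782-57301906.

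Between PPAT and PAICS: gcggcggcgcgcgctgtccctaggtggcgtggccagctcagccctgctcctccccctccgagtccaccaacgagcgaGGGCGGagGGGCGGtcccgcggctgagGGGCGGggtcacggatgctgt

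The 0 of PAICS stood beside nonzero values on both sides. SRP72, a subunit of the signal recognition particle and the next gene downstream of PAICS, was listed at 77.0 FPKM (N-scr) and 95.2 (N-si) under normoxia and 43.8 (H-scr) and 60.3 (H-si) under hypoxia. AASDH, beyond PPAT, was at 6.21 FPKM (N-scr) and 8.79 (N-si) under normoxia and 6.61 (H-scr) and 13.3 (H-si) under hypoxia, and ARL9, beyond SRP72, did not exceed 0.131. Of the 7 rows for PAICS pseudogenes, 1 was above 0, and the highest value was 0.162 FPKM. Across the table, 29 rows were at 0 in 1 library and at 10 FPKM or more in each of the other 3, and they numbered 5 (N-scr) and 8 (N-si) under normoxia and 5 (H-scr) and 11 (H-si) under hypoxia. All but 2 of the 29 have loci of 104 to 147 bases. The other two were PAICS and PRRC2C, which had 72.1 FPKM (N-scr) and 0 (N-si) under normoxia and 50.7 (H-scr) and 93.9 (H-si) under hypoxia. An exact 0 among FPKM may also stand for an estimate that failed, and for PAICS this was not tested.

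GART (ENSG00000159131, chromosome 21, 34876238 to 34915797, minus strand) encodes a protein with several activities early in ring assembly, among them the first use of a folate-bound one-carbon unit. It had the highest level of the 10 enzymes in every library, with 296 FPKM (N-scr) and 310.2 (N-si) under normoxia and 177 (H-scr) and 152 (H-si) under hypoxia. Its ratio to PPAT was 12.1 (N-scr) and 13.1 (N-si) under normoxia and 11.3 (H-scr) and 15.5 (H-si) under hypoxia. Scrambled cells showed a hypoxia response of -0.74 (counting interval -0.78 to -0.71) and TET1-si cells one of -1.03 (-1.06 to -0.996). A second GART row, off the chromosomes proper, was listed at 0 in each library. The reads are not stated to keep strand, and the GART locus overlaps that of SON, a splicing cofactor on the other strand, at 413 FPKM (N-scr) and 520.1 (N-si) under normoxia and 435 (H-scr) and 517 (H-si) under hypoxia. SON was nearly level between normoxia and hypoxia in each state, and its part in the GART values was not tested.

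PFAS (ENSG00000178921, chromosome 17, 8150936 to 8173809, plus strand) adds a second nitrogen from glutamine. It was listed at 58.3 FPKM (N-scr) and 84.0 (N-si) under normoxia and 27.0 (H-scr) and 29.4 (H-si) under hypoxia. The hypoxia libraries were close to each other and N-si was highest, with a hypoxia response of -1.11 for scrambled cells (counting interval -1.17 to -1.05) and -1.51 for TET1-si cells (-1.57 to -1.46). PAICS aside, PFAS alone was past 2-fold in H-scr against N-scr. Its locus overlaps that of CTC1, a telomere maintenance gene. CTC1 was at 8.19 FPKM (N-scr) and 26.1 (N-si) under normoxia and 18.7 (H-scr) and 48.6 (H-si) under hypoxia. It was thus higher in hypoxia in both states, and its part in the PFAS values was not tested.

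ADSL (ENSG00000239900, chromosome 22, 40742507 to 40764823, plus strand) cleaves fumarate from 2 intermediates, 1 on the way to IMP and 1 on the branch to AMP. It was listed at 118 FPKM (N-scr) and 57.0 (N-si) under normoxia and 62.0 (H-scr) and 32.5 (H-si) under hypoxia. H-scr lay above N-si, which no other enzyme showed. The TET1-si response was -1.05 under normoxia (counting interval -1.10 to -1.01) and -0.93 under hypoxia (-0.99 to -0.87), whereas no other enzyme had a change of 2-fold or more with TET1-si under normoxia. Scrambled cells had a response of -0.93 to hypoxia and TET1-si cells one of -0.81.

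ATIC (ENSG00000138363, chromosome 2, 216176540 to 216214487, plus strand) uses the second one-carbon unit and closes the ring to give IMP. It was listed at 122 FPKM (N-scr) and 140 (N-si) under normoxia and 67.4 (H-scr) and 73.9 (H-si) under hypoxia. Both TET1-si libraries were slightly above their scrambled counterparts, by 0.20 under normoxia (counting interval 0.15 to 0.26) and 0.13 under hypoxia (0.06 to 0.21). Its responses to hypoxia were nearly the same in either state, at -0.85 (scrambled) and -0.92 (TET1-si).

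The start regions of these genes were searched for the E-box CACGTG, to which MYC and its partners bind and which holds the core ACGTG of hypoxia response elements, since the enzymes were lower together and the oxygen level was the variable. RefSeq windows from 250 bases before to 50 after a start site (GRCh38.p14, both strands searched) matched 8 of the 10 genes and left ADSL and IMPDH2 without an entry. CACGTG was present for 3 of the 8, ATIC, PAICS and PPAT, of which PAICS and PPAT share 1 site, and for 8.77% of 27305 genes. ACGTG alone, which every CACGTG contains, was present for 4 of the 8, GART in addition, and for 24.9% of genes. The GC box GGGCGG was present for 8 of the 8 and for 48.3% of genes. PAICS and PPAT face the same stretch with its 3 copies, so their matches may be the same copies. These shares are over all genes with windows, expressed or not, and a gene counted when any of its windows matched. By window, GGGCGG was in 9 of 12 for the enzymes and in 45.0% of all. A match is a description of these letters and not of binding. The sites are printed with CACGTG in capitals, the first from GRCh37 at chr4:57301946-57301975 and 52 bases from the start of the PAICS locus, the others from GRCh38.p14 at chr2:215312001-215312030 and chr2:215312076-215312105, at -46 and 29 bases from the ATIC start, all on the plus strand.

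PAICS site: ctgtatttgctgCACGTGgaaatctccgtt
ATIC site upstream: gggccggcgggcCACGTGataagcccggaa
ATIC site downstream: ctcctacctgcgCACGTGgtgccgccgctg

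IMPDH1 and IMPDH2 are the isozymes of IMP dehydrogenase, the step that limits GMP synthesis. IMPDH2 (ENSG00000178035, chromosome 3, 49061758 to 49066841, minus strand) was listed at 163 FPKM (N-scr) and 141 (N-si) under normoxia and 104 (H-scr) and 73.5 (H-si) under hypoxia. IMPDH1 (ENSG00000106348, chromosome 7, 128032331 to 128050306, minus strand) was listed at 42.0 FPKM (N-scr) and 33.8 (N-si) under normoxia and 30.3 (H-scr) and 22.3 (H-si) under hypoxia. IMPDH2 was the higher isozyme throughout, by 3.89-fold (N-scr) and 4.18-fold (N-si) under normoxia and 3.42-fold (H-scr) and 3.30-fold (H-si) under hypoxia. IMPDH1 had the smallest decrease of the 10 enzymes in hypoxia, with a response of -0.47 for scrambled cells (counting interval -0.56 to -0.38) and -0.60 for TET1-si cells (-0.71 to -0.50). For IMPDH2 the responses were -0.66 and -0.94. Both isozymes were lower with TET1-si at either oxygen level, with changes of -0.44 for IMPDH1 and -0.49 for IMPDH2 under hypoxia, and -0.31 and -0.21 under normoxia.

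GMPS (ENSG00000163655, chromosome 3, 155588325 to 155658457, plus strand) aminates the product of IMP dehydrogenase to GMP. It was listed at 75.9 FPKM (N-scr) and 105 (N-si) under normoxia and 46.8 (H-scr) and 45.6 (H-si) under hypoxia. For the FPKM as listed, the hypoxia libraries did not differ beyond counting error (TET1-si response -0.04, counting interval -0.13 to 0.05). N-si was above N-scr by 0.47 (0.40 to 0.53). Against normoxia, hypoxia gave -0.70 with the scrambled control and -1.20 with TET1-si.

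The order of the enzymes by level differed in part between libraries. In N-scr it ran from GART over PAICS, IMPDH2, ATIC, ADSL, GMPS, PFAS, IMPDH1 and PRPS1 to PPAT. In N-si ADSL came after GMPS and PFAS, and PRPS1 stood above IMPDH1. In H-scr PAICS was last with its 0 and IMPDH1 stood above PFAS. In H-si ATIC at 73.9 FPKM and IMPDH2 at 73.5 were nearly level, and PAICS came after both. The approximate reads behind the values of the 9 enzymes other than PAICS ran from 763 for PPAT in H-si to 23556 for GART in N-si.

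Set beside all genes, the hypoxia responses of the enzymes lay low in both states. In scrambled cells the median over the 10 was -0.76, or -0.74 over the 9 without PAICS, and the range over the 9 was -1.11 to -0.47, while over all genes the median was 0.05 and the middle range, from the 25th to the 75th percentile, was -0.34 to 0.53. Of the 10, 2 were at least 2-fold lower, PFAS and PAICS with its 0, and 0 were at least 2-fold higher, against 4.53% and 12.9% of all genes. In TET1-si cells the median over the 10 was -1.11, over the 9 it was -1.03, and over all genes 0.03. There 6 of the 10, PAICS, PFAS, PRPS1, PPAT, GMPS and GART, were at least 2-fold lower and 0 were at least 2-fold higher, against 8.66% and 12.5% of all genes. The enzymes differ from one another by less than 2-fold in response in scrambled cells once PAICS is set aside, so the 2-fold line passes among near values. The members were chosen on these values, and nothing further is read from the shares.

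**Figure D2:**
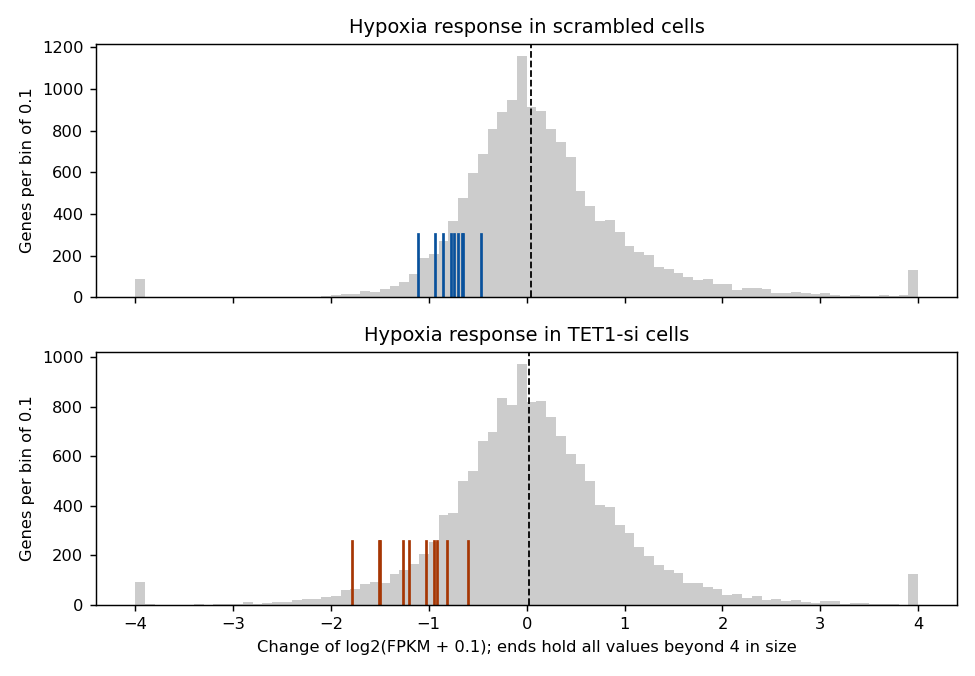
Histograms of the hypoxia response of 15057 genes (change of log2(FPKM + 0.1), bins of 0.1; the end bins hold all values beyond 4 in size) in scrambled and TET1-si cells, with a coloured line for each enzyme and a dashed line at the median of all genes. The 9 lines in scrambled cells lie between -1.11 and -0.47 and the 10 lines in TET1-si cells between -1.78 and -0.60, all left of the dashed lines; PAICS is not drawn in scrambled cells.

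By branch, the median response to hypoxia over the 6 enzymes that lead to IMP was -0.89 (scrambled) and -1.15 (TET1-si), or -0.85 and -1.03 without PAICS. The 3 enzymes of the GMP branch had medians of -0.66 and -0.94. PRPS1, which feeds both, was at -0.78 and -1.50.

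The TET1-si responses lay on both sides of 0. They are drawn from the same 4 libraries as the hypoxia responses and are not independent of them. Under hypoxia the median over the 10 was -0.20 against 0.10 over all genes, 0 were at least 2-fold lower, and 1, PAICS from its 0, was at least 2-fold higher, where 8.35% and 12.0% of all genes were past that fold. Under normoxia the median was 0.01 against 0.15, with 1 enzyme, ADSL, at least 2-fold lower and 0 at least 2-fold higher, where 5.56% and 12.1% of all genes were. ADSL, IMPDH1 and IMPDH2 were lower with TET1-si at both oxygen levels under each scaling tried. PFAS and ATIC were higher at both, except that median-of-ratios scaling gave -0.02 and -0.01 under hypoxia. PRPS1 was higher under normoxia and lower under hypoxia. So was GART, except that its value of 0.07 under normoxia became -0.10 with median-of-ratios and -0.05 with upper-quartile scaling, and so was GMPS, except that its value under hypoxia, whose counting interval holds 0, became 0.03 as TPM. PPAT was lower under hypoxia and, for the FPKM as listed, within counting error under normoxia. Its value under normoxia became -0.22 with median-of-ratios and -0.17 with upper-quartile scaling, outside that error. GMPS under hypoxia likewise became -0.18 with median-of-ratios scaling. PAICS was at -0.10 under normoxia (counting interval -0.14 to -0.07). None of the 10 met the 3 RNA-Seq conditions by which the study picked genes regulated by TET1 under hypoxia (more than 2-fold higher in H-scr than in H-si, higher in H-scr than in N-scr, and no lower in N-scr than in N-si), which 3.84% of all genes met. This outcome was fixed by the hypoxia responses, since all 10 were listed lower in H-scr than in N-scr, PAICS through its 0. Nothing about TET1 is read from it.

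**Figure D3:**
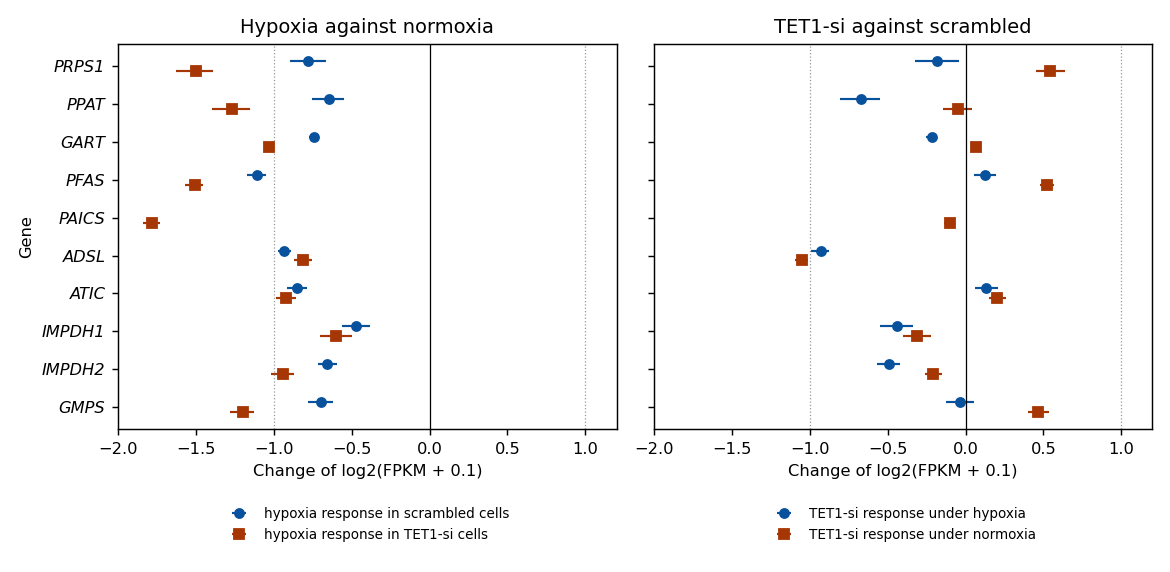
Change of log2(FPKM + 0.1) for each enzyme, left hypoxia against normoxia in scrambled (circles) and TET1-si cells (squares), right TET1-si against scrambled under hypoxia (circles) and normoxia (squares); bars are 95% counting intervals and dotted lines mark 2-fold. All points at left lie below 0, while at right ADSL lies near -1 at both oxygen levels and PRPS1, PFAS and GMPS lie near 0.5 under normoxia; comparisons of PAICS with H-scr are not drawn.

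With TET1-si the hypoxia response was lower than in scrambled cells for 8 of the 9 enzymes other than PAICS, as it was for 55.4% of all genes, and the median difference over the 9 was -0.29 against -0.06. The difference was -0.72 for PRPS1 (approximate 95% counting interval -0.89 to -0.56), -0.62 for PPAT (-0.78 to -0.47) and -0.50 for GMPS (-0.62 to -0.39). PRPS1 and PPAT act at the entry of the pathway and GMPS at the end of the GMP branch. PFAS followed at -0.40, with IMPDH2 and GART at -0.29 each and counting intervals below 0. For IMPDH1 (-0.13, interval -0.27 to 0.01) and ATIC (-0.07, interval -0.16 to 0.02) a difference was not detectable at this depth, and for ADSL it was 0.12 (0.05 to 0.19). The ADSL reads rest on the longest transcript within its locus (4965 bases), so its interval may be too narrow. In no case did the difference reach 2-fold, as it did for 7.86% of all genes toward lower and 4.87% toward higher values; the difference for PAICS has no usable value. All 4 libraries enter each difference, with none to spare for an estimate of the spread.

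The genes around the pathway were read from lists by function. In the PRPP synthesis list, 4 of 5 genes, PRPS1 included, passed the minimum, and their median response to hypoxia was -0.21 (scrambled) and -0.60 (TET1-si), with PRPS1 lowest and PRPSAP2, a regulatory partner of the synthetases, highest at 0.10 in scrambled cells. On the AMP branch, the main adenylosuccinate synthetase ADSS was listed at 39.9 FPKM (N-scr) and 37.5 (N-si) under normoxia and 38.9 (H-scr) and 25.2 (H-si) under hypoxia, so in scrambled cells it did not differ beyond counting error (-0.03, interval -0.12 to 0.05). The muscle isozyme ADSSL1 was at 2.30 FPKM (N-scr) and 1.94 (N-si) under normoxia and 5.79 (H-scr) and 3.99 (H-si) under hypoxia, higher in hypoxia in both states. The enzyme that opens the AMP branch was thus level in scrambled cells where the 3 enzymes of the GMP branch were lower. In TET1-si cells ADSS was lower in hypoxia too, at -0.57 (interval -0.68 to -0.48). The GMP branch ran there from -1.20 (GMPS) to -0.60 (IMPDH1), so the contrast was not kept for IMPDH1.

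In the purine salvage list, which recovers bases and nucleosides, 5 of 6 genes were lower in hypoxia in scrambled cells, none by 2-fold, with a median of -0.33 and extremes at PNP (-0.65) and DCK (0.15). In TET1-si cells all 6 were lower, 3 of them at least 2-fold, with a median of -0.81. The 11 genes of purine interconversion and breakdown that passed the minimum had medians near 0, -0.09 and 0.19, from ADA at -0.50 to AMPD3 at 1.45 in scrambled cells, and 3 of them were at least 2-fold higher there.

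The supply lines differed from each other. Serine and folate one-carbon supply, which provides the formyl groups used by GART and ATIC, had medians of -0.63 (scrambled) and -1.05 (TET1-si) over 14 genes, of which 2 and 8 were at least 2-fold lower. PSAT1, an enzyme of serine synthesis, was lowest at -1.82 in scrambled cells and ALDH1L1 highest at 1.40. The 7 genes of the pentose phosphate pathway, which provides the ribose, had medians of 0.31 (scrambled) and -0.48 (TET1-si), with RPIA, which forms ribose phosphate, lowest in scrambled cells at -1.21.

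The other nucleotide lists had medians below 0 in both states, but not all of their genes were lower. De novo pyrimidine synthesis had medians of -0.65 (scrambled) and -1.53 (TET1-si) over 6 genes, with 1 and 4 at least 2-fold lower, DHODH lowest (-1.33) and CTPS2 highest (-0.03) in scrambled cells. Nucleotide kinases and ribonucleotide reductase had medians of -0.71 and -1.15 over 8 genes, of which 5 were lower and 3 higher in hypoxia in scrambled cells, with NME1 at -1.44 and RRM2B, a p53-induced subunit of the reductase, at 0.51 in scrambled cells.

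Markers of dividing cells moved with the enzymes. All 10 proliferation markers were lower in hypoxia in both states, with a median of -0.73 in scrambled cells, none by 2-fold, from CCNB1 at -0.90 to MKI67 at -0.36, and a median of -1.73 in TET1-si cells, all 10 by at least 2-fold. Their summed level was 1698 FPKM (N-scr) and 1568 (N-si) under normoxia and 1025 (H-scr) and 454 (H-si) under hypoxia. In scrambled cells their median was thus near that of the 9 purine enzymes (-0.74), and in TET1-si cells it was below theirs (-1.03). With TET1-si the markers had a median of -1.004 under hypoxia, with 5 of 10 at least 2-fold lower, and of -0.19 under normoxia, where the 10 enzymes had -0.20 and 0.01. Their part in the lower levels of the enzymes was not tested.

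**Figure D4:**
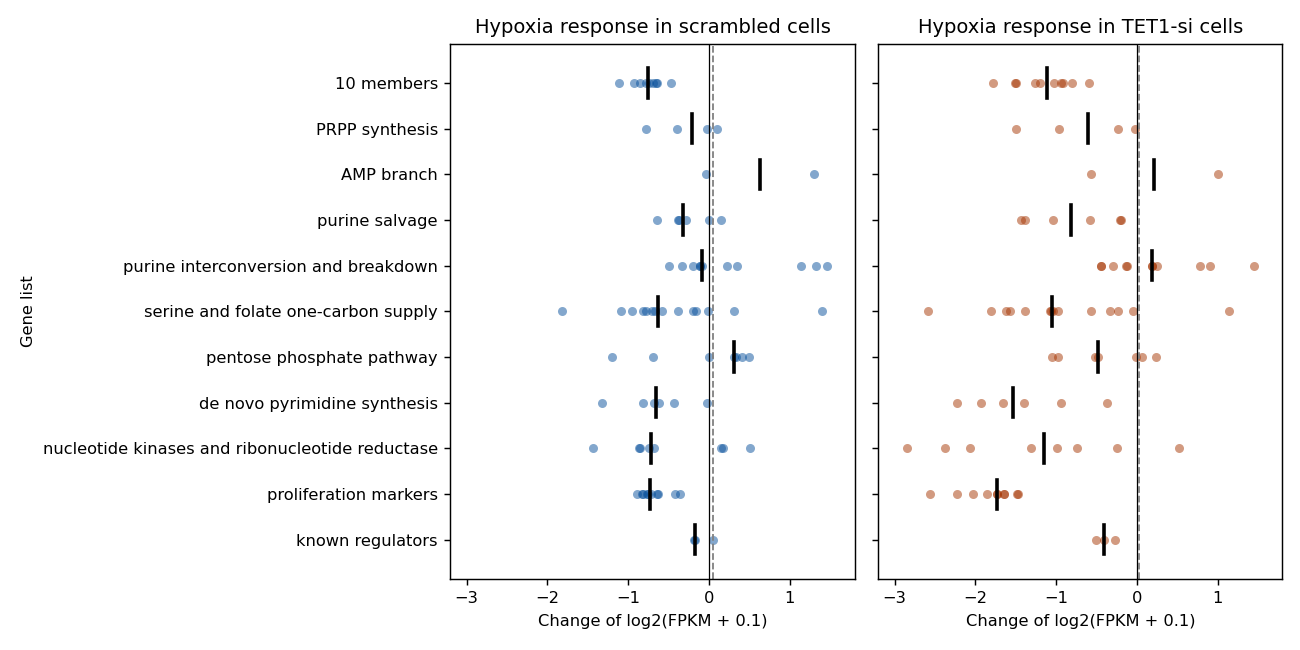
Hypoxia response (change of log2(FPKM + 0.1)) of each gene in the 10 enzymes and 10 related lists, in scrambled and TET1-si cells, with 1 point per gene, a bar at the list's median and a dashed line at the median of all genes. The medians of the 10 enzymes and of the one-carbon, pyrimidine, kinase and proliferation lists lie at or below -0.63 in both panels. Those of the other lists (PRPP synthesis, AMP branch, purine salvage, interconversion and breakdown, pentose phosphate pathway, regulators) lie above that value in scrambled cells. PAICS enters the median in scrambled cells but its point is off the scale.

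Of 3 regulators known to act on the pathway, the transcription factor MYC was listed at 52.8 FPKM (N-scr) and 40.6 (N-si) under normoxia and 54.8 (H-scr) and 28.5 (H-si) under hypoxia. ATF4, which drives serine and one-carbon genes, was at 388 FPKM (N-scr) and 221 (N-si) under normoxia and 344 (H-scr) and 167 (H-si) under hypoxia, lower in both TET1-si libraries. The kinase MTOR was within 19.0 to 22.9 FPKM throughout. Over the 3 the median response to hypoxia was -0.17 (scrambled) and -0.40 (TET1-si).

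The mean profile of the 9 enzymes over the 4 libraries, each centred on its own mean log2 level, was 0.45 (N-scr) and 0.47 (N-si) under normoxia and -0.31 (H-scr) and -0.61 (H-si) under hypoxia. Of the 9, GART lay nearest to it (Euclidean distance 0.08 on the log2 scale) and ADSL farthest (0.88). Among 7819 protein-coding genes of at least 10 FPKM outside the set, 39.0% were nearer than ADSL and 0.102% nearer than GART. The 9 enzymes enter this mean themselves and the other genes do not, so these shares favour the enzymes. The genes outside the set with the smallest distance were SNX5 (0.02), SERBP1 (0.04), PCGF6, LSM2 and ILF2 (0.06 each). SNX5, a sorting nexin, was listed at 186 FPKM (N-scr) and 188 (N-si) under normoxia and 111 (H-scr) and 89.0 (H-si) under hypoxia, and SERBP1, an RNA-binding protein, at 430.0 FPKM (N-scr) and 426 (N-si) under normoxia and 248 (H-scr) and 207 (H-si) under hypoxia. With 4 libraries many genes come close by number alone, and no shared function is read from the distance.

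The TET1-si responses of the enzymes were also set beside those of the 50 nearest protein-coding genes that passed the minimum, a comparison picked once the responses were known. GART did not follow its surroundings on chromosome 21, where the surrounding median was 1.00 (hypoxia) and 1.13 (normoxia) against -0.22 and 0.07 for GART itself. PFAS was near its surroundings on chromosome 17 under normoxia (0.52 against 0.61) and below them under hypoxia (0.13 against 0.72). IMPDH1 lay near its surroundings on chromosome 7, with -0.44 against -0.37 under hypoxia and -0.31 against -0.37 under normoxia. Over all protein-coding genes of chromosome 7 that passed the minimum, the median was -0.32 (hypoxia) and -0.26 (normoxia), so IMPDH1 was near its whole chromosome too. Chromosome 21 as a whole was at 0.69 and 0.77, chromosome 17 at 0.26 and 0.33 and chromosome 22 at -0.09 and 0.03. Over all genes the medians were 0.10 and 0.15. ADSL lay below its surroundings on chromosome 22, with -0.93 against -0.14 and -1.05 against -0.05. IMPDH2, with -0.49 against 0.31, and PPAT, with -0.67 against 0.02, also lay below theirs under hypoxia. Around the enzymes other than GART, PFAS, IMPDH1 and ADSL the medians ran from -0.01 to 0.35 under hypoxia. For the hypoxia responses, the surrounding medians of all 10 genes lay between -0.11 and 0.18 (scrambled) and between -0.25 and 0.21 (TET1-si).

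**Figure D5:**
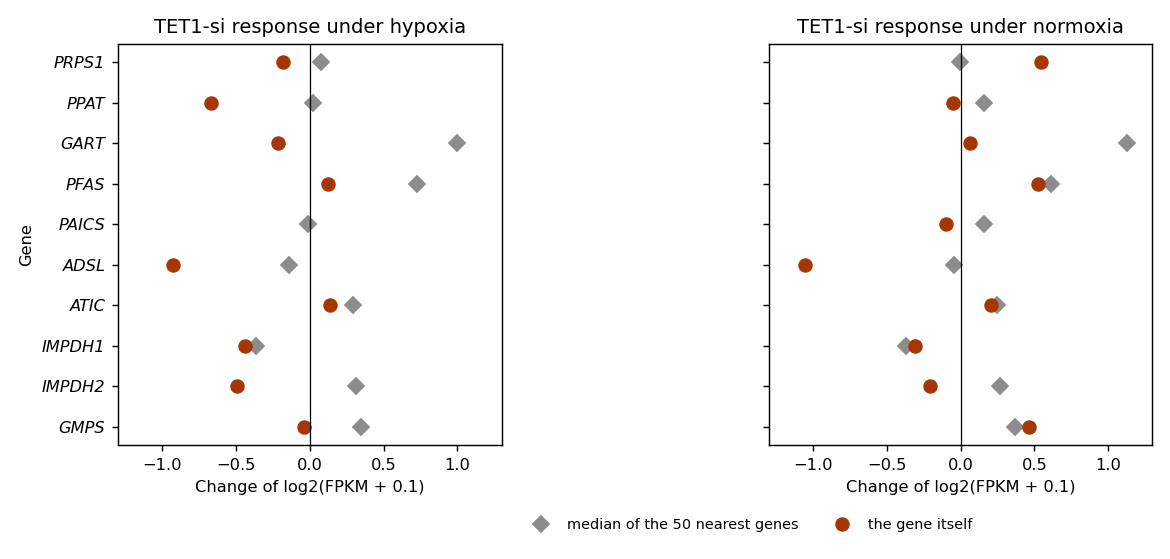
TET1-si response (change of log2(FPKM + 0.1)) of each enzyme (circles) and the median of its 50 nearest genes (diamonds) under hypoxia and normoxia. The circle and the diamond lie far apart under hypoxia for GART (-0.22 and 1.00), IMPDH2 (-0.49 and 0.31), ADSL (-0.93 and -0.14) and PPAT (-0.67 and 0.02), and close together for IMPDH1 (-0.44 and -0.37); PAICS under hypoxia has a diamond only.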

How the data were processed

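The values are FPKM. The authors prepared libraries with the Illumina TruSeq mRNA kit, sequenced them on an Illumina HiSeq instrument, aligned the reads to hg19 with TopHat and summarised them per Ensembl gene with Cufflinks, and deposited 1 FPKM column per library (tools and build also named in the submitters' processing notes; versions not given in the sources used here). The labels give 100-base single-end reads and the methods paired-end reads, and neither states strandedness.

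Changes were computed as differences of log2(FPKM + 0.1), since FPKM are not counts and each group has 1 library, so no test was run. This scale understates the change of low genes. Genes with a mean of at least 1 FPKM were kept (15057 of 62077 rows), and 232 rows of 111 repeated gene identifiers were left out. Depth was recovered from the steps of low values among 5205 one-exon genes, as the depth at which the largest share came out whole. Of 758 to 873 low values per library, 96.7% to 97.3% came out whole within 0.05 reads. This share is what the search maximised and is not a separate check. Approximate reads were then taken from FPKM, depth and the length of a GENCODE transcript that lies within the locus. This was the canonical transcript where it fitted and otherwise the longest, as for PAICS, ADSL and GMPS. A length that is too great gives too many reads and too narrow an interval. The reads give exact (Clopper-Pearson) 95% counting intervals of each ratio and normal-approximation intervals for differences of responses. Both rest on reads that are approximate and cover counting error only.

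Named genes were all 10 enzymes, their isozymes, the highest and lowest gene of each list by hypoxia response in scrambled cells, TET1, genes next to PAICS, genes at 0 in 1 library, and the 5 nearest profiles. Cell type markers were named from a fixed list, ATF4 as a member of a list of 3 regulators, and SON and CTC1, which overlap enzyme loci, after their values were seen. Of the genes named by the rule, 1 is not reported here. The members and the gene lists were chosen with earlier results of these data known. The alternatives were 3 other scalings, no pseudocount or 1, no minimum or 5 FPKM, and the set without PAICS. The scripts were checked on simulated data. Sequences came from GRCh37 and the RefSeq promoter table. Software was Python 3.11.15, pandas 2.3.3, NumPy 2.4.6, SciPy 1.17.1 and matplotlib 3.10.9.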

Additional observations from a re-analysis of the deposited data

Results flagged for a closer look

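Some genes went opposite ways under the same comparison in the 2 states, with 1 library on each side, so the difference itself was not tested. For the response to TET1-si under hypoxia less that under normoxia, GART differed by -0.285, GMPS by -0.50 and PRPS1 by -0.72 on the log2 scale, each being higher with TET1-si under normoxia and lower under hypoxia. This is the same quantity as the difference of hypoxia responses given above. The second comparison below turns its sign, so a gene named in both gives 1 result. Around these enzymes, DCK differed by -1.59, DHODH by -0.33 and MTOR by -0.083. For the hypoxia response in scrambled cells less that in TET1-si cells, DCK, the salvage kinase for deoxynucleosides, differed by 1.59, MYC by 0.57 and PRPSAP2 by 0.12, each being higher in hypoxia in scrambled cells and lower in TET1-si cells. Both counting intervals lay clear of 0 for GART, PRPS1 and DCK. For the other differences at least 1 of the intervals held 0. The GART value under normoxia changed sign with median-of-ratios and upper-quartile scaling, so its opposite direction was not kept there.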

How the results depend on the processing

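The hypoxia responses kept their direction for the 9 enzymes other than PAICS in both states, and for PAICS with TET1-si, under every setting run; PAICS in scrambled cells, which rests on its 0, was not followed. Under median-of-ratios scaling the median over the 10 was -0.88 (scrambled hypoxia response), -1.21 (TET1-si hypoxia response), -0.34 for TET1-si under hypoxia (1 enzyme at least 2-fold lower) and -0.16 for TET1-si under normoxia, which reverses its sign. As TPM the first 3 were -0.64, -0.98 and -0.13. There 1 enzyme was at least 2-fold lower in scrambled cells, PAICS with its 0, as PFAS was at -0.99. The 2 enzymes at least 2-fold lower in scrambled cells became 3 by median-of-ratios. The 6 in TET1-si cells became 8 by median-of-ratios and 5 as TPM and by upper quartile. Under upper-quartile scaling the medians were -1.01 in TET1-si cells, -0.26 for TET1-si under hypoxia and -0.11 under normoxia, reversed again. Less the median of all genes, an alternative chosen after seeing the data, they were -0.81 in scrambled cells, -0.30 for TET1-si under hypoxia and -0.14 under normoxia, also reversed. With no pseudocount, PAICS drops out of comparisons with H-scr, which leaves 1 enzyme at least 2-fold lower in scrambled cells and 0 higher with TET1-si under hypoxia; the set without PAICS gave the same 1 and 0, with medians of -1.03 with TET1-si in hypoxia and 0.067 for TET1-si under normoxia. Among single enzymes, signs changed for GART with TET1-si under normoxia (-0.10 by median-of-ratios, -0.052 by upper quartile) and, under hypoxia, for PFAS (-0.020) and ATIC (-0.012) by median-of-ratios and GMPS as TPM (0.031). Among related lists, medians changed sign for one-carbon supply (-0.13 and -0.083) and for kinases and reductase (-0.10 and -0.054) with TET1-si under normoxia by median-of-ratios and upper quartile, for interconversion and breakdown in scrambled cells as TPM (0.025) and with no minimum (0.066), and for the AMP branch with a minimum of 5, which leaves ADSS alone (-0.034 in scrambled and -0.57 in TET1-si cells). Except for the settings that change which genes enter, the cause was not tested. TPM moved the median of all genes in the hypoxia responses to 0.18 from 0.05 and 0.03. Restricted to 11907 protein-coding genes, a background also chosen after seeing the data, 3.78% (scrambled) and 8.66% (TET1-si) were at least 2-fold lower in hypoxia. No paired analysis was possible because each group has 1 library, and for the same reason no replicate could be left out.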
